A study of Mus musculus with 8 samples.

Results

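The genes described here encode molecular chaperones, the proteins that help other proteins fold, and the cochaperones that work with them. They were taken by symbol from a table of gene counts in activated mouse CD8+ T cells: the HSP90 genes, the numbered Hspa, Hspb, Hspd, Hspe and Hsph genes, all Dnaj genes, the chaperonin subunits Tcp1 and Cct2 to Cct8 with their relatives, and Bag1 to Bag6. The rule took 84 of 24976 gene symbols, and it used no measured value. By family these were 3 HSP90 genes, 14 HSP70 and HSP110 genes, 6 small heat shock genes, 2 genes of the HSP60 and HSP10 pair, 10 CCT genes, 4 DNAJA, 12 DNAJB and 27 DNAJC genes, and 6 BAG genes. A symbol does not make a chaperone in every case: Hspb11 is better known as the transport protein IFT25 of cilia, and Dnajc19-ps is annotated as a processed pseudogene of Dnajc19. Counts of Dnajc19 and Dnajc19-ps are therefore uncertain, as are those of the near-identical genes Hspa1a and Hspa1b.

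The libraries form 4 groups of 2 replicates. Naive CD8+ T cells labelled dKO came from mice with Cd8Cre and floxed alleles of Nr4a1 and Nr4a2, and WT cells came from their littermates. Cells of both genotypes were activated with anti-CD3, anti-CD28 and IL2, and total RNA was taken at 48 or 24 h. The groups are thus dKO 48 h, WT 48 h, dKO 24 h and WT 24 h. Cre driven by Cd8 acts in cells of that lineage. The removed exons, the age of the mice and the number of animals behind a library were not stated in the labels. Nothing states that replicates came from separate cultures or animals, so p-values measure only the spread between these libraries, which may be technical.

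Chaperones are built as machines with partners. HSP70 proteins bind short stretches of unfolded chains, DNAJ proteins deliver clients and start the ATP cycle of HSP70, and BAG proteins release the nucleotide and so the client. HSP90 proteins take over clients such as kinases and steroid receptors, while the ring of CCT subunits, also called TRiC, folds actin and tubulin in its inner chamber. Within mitochondria the same work is done by HSP60 with its lid HSP10 and by the HSP70 protein HSPA9, and in the endoplasmic reticulum (ER) by HSPA5, HSP90B1 and their DNAJ partners. Many of these genes are switched on by heat shock factor HSF1, which binds repeated GAA blocks, and ER chaperones by the unfolded protein response, which acts on the ER stress element. Activated T cells grow and divide fast, which raises their demand for folding.

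Those elements were looked for in the promoter windows of RefSeq (GRCm38.p6), which run from 250 bases before to 50 bases after each start site. Of the members, 68 genes with 88 windows were matched by symbol. The longer heat shock element, spelled GAANNTTCNNGAA or TTCNNGAANNTTC on either strand, was found for 4 of these 68 genes, Dnajb6, Hspd1, Hspe1 and Hsph1, and for 0.662% of 27025 genes with a window. The shorter GAANNTTC, or TTCNNGAA, which every longer match contains, was found for 18 of 68 genes and 17.0% of all genes. The ER stress element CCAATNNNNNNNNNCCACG, or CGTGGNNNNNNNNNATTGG, was found for 3 of 68 genes, Hspa5, Hsp90b1 and Dnajc3, and for 0.137% of all genes. The matches printed here show the letters of both kinds of element in genes whose values are given further on, with capitals for the matched bases. Hspe1 and Hspd1 share 1 block between their start sites, read here on the strand of Hspe1. Its bases lie in an annotated exon of Hspd1, those of Hspa5 in an exon of Hspa5, and those of Dnajb6 in exons of Dnajb6 and Gm5129. For these 3 the flanks are limited to 5 bases. The other matches shown lie in no annotated exon and have flanks of 20 bases. The stretches of Hspa1a and Hspa1b are identical, so that 1 is printed. A match is a description of letters, not of binding.
Hspe1 and Hspd1, longer heat shock element, chr1:55088054-55088081, strand +: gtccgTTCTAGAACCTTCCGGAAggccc
Dnajb6, longer heat shock element, chr5:29735847-29735869, strand +: tccgaGAATCTTCCGGAAcgcta
Hspa1a, shorter heat shock element, chr17:34972233-34972280, strand -: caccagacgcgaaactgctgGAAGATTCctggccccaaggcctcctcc
Hspa5, ER stress element, chr2:34772020-34772048, strand +: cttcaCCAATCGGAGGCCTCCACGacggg
Hsp90b1, ER stress element, chr10:86705618-86705676, strand -: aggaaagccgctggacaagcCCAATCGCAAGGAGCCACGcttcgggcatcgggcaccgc
Dnajc3, ER stress element, chr14:118937807-118937865, strand +: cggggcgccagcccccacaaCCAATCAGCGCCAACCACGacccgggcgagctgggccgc

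Library totals ran from 5000952 to 21686236 counts. Where a gene has 0 counts, up to 3 counts remain possible, or 0.138 to 0.600 CPM (counts scaled to a common library total), for counting error only. The largest library, WT 48 h replicate 2, stood apart: ribosomal protein genes took 7.04% of its counts, against 10.999% in WT 48 h replicate 1 and 11.7 to 13.4% in the other 6 libraries. Nr4a1, a targeted gene, stood at 613 and 651 CPM in dKO 48 h and 735 and 682 CPM in WT 48 h, lower in dKO, and at 589 and 545 CPM in dKO 24 h and 542 and 322 CPM in WT 24 h, higher in dKO. The other, Nr4a2, was higher in dKO at both times, at 72.9 and 75.2 CPM in dKO 48 h against 20.5 and 29.1 CPM in WT 48 h, and at 157 and 146 CPM in dKO 24 h against 61.7 and 57.5 CPM in WT 24 h. Neither gene was near 0 in dKO, and the removed exons are not known here, so the dKO label is not checked by the counts of its own targets. Xist was at 0.719 to 1.80 CPM in the 4 dKO libraries and 323 to 805 CPM in the 4 WT libraries, and the summed Y-linked genes at 131 to 175 CPM in dKO and 1.28 to 1.75 CPM in WT. Genotype and this female-type against male-type difference cannot be told apart in any genotype comparison, although 0 members lie on X or Y. All 6 CD8 T cell markers were present, and their sum was lowest in WT 48 h, at 1395 and 1133 CPM, against 1689 to 2275 CPM in the other libraries. Summed markers of other cells were at 1.29 to 3.95 CPM for CD4 or regulatory T cells, 2.71 to 6.87 CPM for B cells, and 0 to 0.288 CPM for NK cells. Those of red cells, platelets and stroma summed to 3.28 and 2.67 CPM in WT 48 h and 1.16 to 1.89 CPM elsewhere, and Hbb-bs, Hba-a1 and Ncr1 were at 0. Myeloid markers summed to 11.3 and 9.50 CPM in WT 48 h and 4.12 to 5.03 CPM elsewhere, with the macrophage gene Lyz2 at 0 in all libraries. The part of these 3 marker sums in the results at 48 h was not tested.

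Levels below are CPM scaled by trimmed mean (TMM) factors. The chaperone genes together took 1.72 and 1.77% of the counts in dKO 48 h, 1.38 and 1.42% in WT 48 h, 2.05 and 1.96% in dKO 24 h, and 1.75 and 2.07% in WT 24 h. On the TMM scale their sum was 17819.5 and 18156 CPM in dKO 48 h, 16531 and 16272 CPM in WT 48 h, 18556 and 18249.9 CPM in dKO 24 h, and 17011 and 17746 CPM in WT 24 h. Replicates 1 and 2 stand in that order here and below. WT 48 h was lowest on both scales, but the gap between the groups was wider in plain shares. In these bulk libraries fewer cells of a type and less RNA per cell cannot be told apart.

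Of the 84 members, 68 passed the filter on low counts and were tested. Each family kept some: 3 of 3 HSP90, 8 of 14 HSP70 and HSP110, 3 of 6 small heat shock, 2 of 2 HSP60 and HSP10, 8 of 10 CCT, 4 of 4 DNAJA, 10 of 12 DNAJB, 24 of 27 DNAJC and 6 of 6 BAG genes. A gene could pass through 2 libraries alone, so the tested members are not a neutral sample of the 84. The range of the tested members over the libraries was not set beside that of all tested genes. The highest library was a median of 1.52 times the lowest (1.181 to 3.73 over the 68), and the ratio was under 2 in 50 of 68. The small heat shock gene Hspb2 had the highest of these ratios.

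The 16 untested members each had a count in some library. They included the classic heat-inducible HSP70 genes Hspa1a and Hspa1b, which carry the shorter element printed above. Hspa1a had 1 and 1 counts in dKO 48 h, 1 and 6 in WT 48 h, 6 and 0 in dKO 24 h, and 2 and 1 in WT 24 h. Hspa1b had 2 and 3 counts in dKO 48 h, 0 and 3 in WT 48 h, 0 and 2 in dKO 24 h, and 4 and 0 in WT 24 h. Both genes thus sat at a few counts in every group, and their sum did not pass the filter either. Hspb1, the small heat shock protein known as HSP25 in mice, had 6 counts over all 8 libraries. Hspa2, an HSP70 of the testis, had at most 31 counts in a library, and Hspb7 at most 9. The others were Hspa1l, Hspa12a, Hspa12b, Hspb9, Cct6b, Cct8l1, Dnajb3, Dnajb7, Dnajc6, Dnajc22 and Dnajc28, with at most 8 counts in any library.

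**Figure D1:**
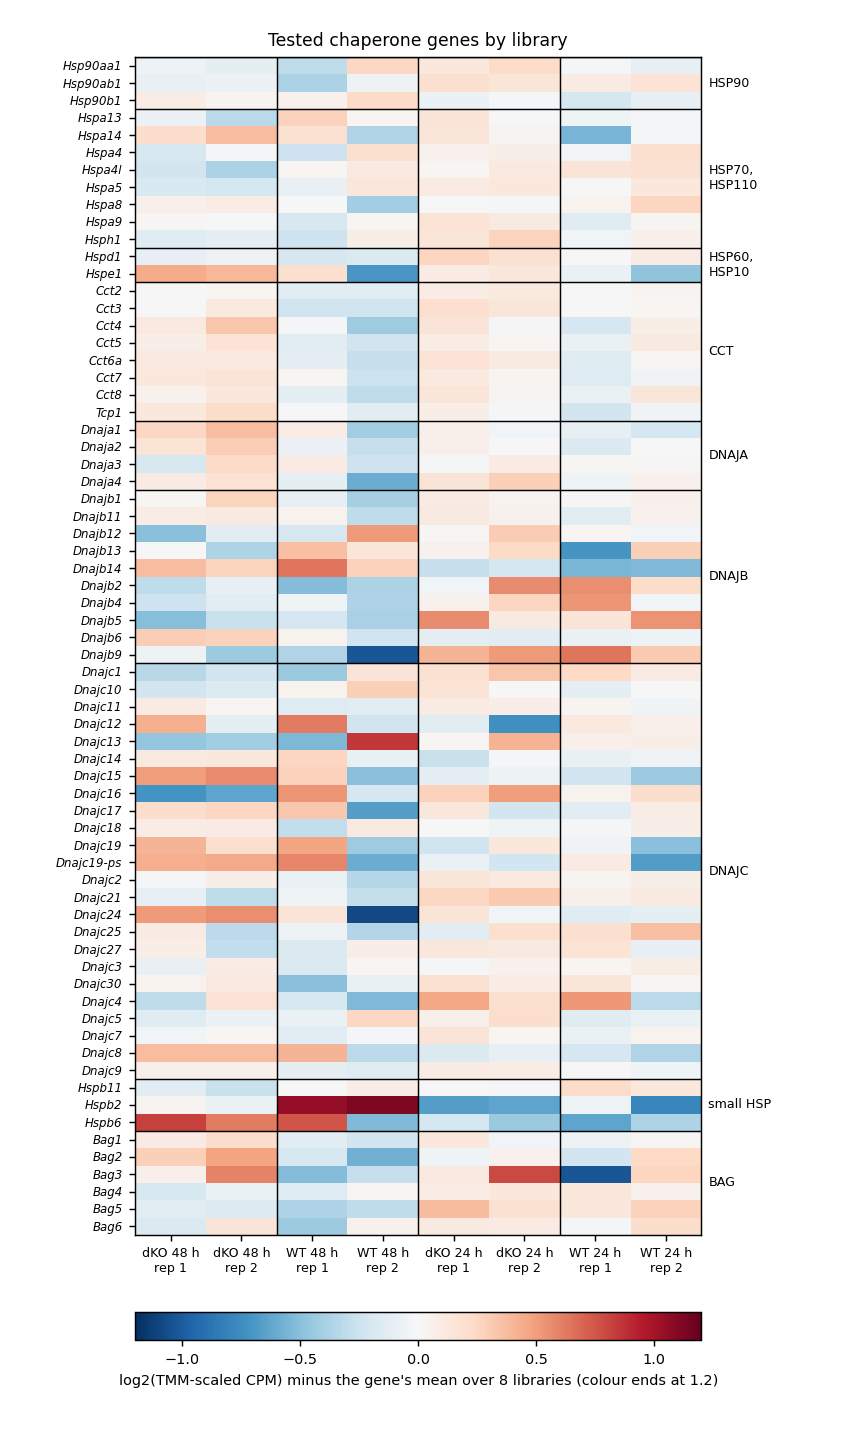
Log2 TMM-scaled CPM of the 68 tested chaperone genes in each of the 8 libraries, minus the gene's own mean, with 1 line per gene grouped by family (colour ends at 1.2). Hspb2 is highest in both WT 48 h libraries, and WT 48 h replicate 2 shows lower values than replicate 1 for several genes such as Hspe1 and Dnajc24.

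Replicates of WT 48 h differed more than those of any other group. Their log2 CPM correlated across genes at r = 0.965, against 0.985 to 0.989 in the other 3 groups. The median absolute log2 difference of the 68 members between replicates was 0.0889 in dKO 48 h, 0.299 in WT 48 h, 0.0941 in dKO 24 h and 0.123 in WT 24 h. Differences over 0.5 were found for 0 members in dKO 48 h, 17 in WT 48 h, 3 in dKO 24 h and 7 in WT 24 h. In WT 48 h the mitochondrial cochaperonin gene Hspe1 was on the low side in replicate 2 with 528 CPM against 979 CPM in replicate 1, and so did Dnajc24, whose product serves diphthamide synthesis, with 10.9 against 25.8 CPM. Dnajc13, an endosomal DNAJ gene, was on the high side with 52.9 against 20.2 CPM. This difference went with the length of the longest annotated transcript. Spearman's rho across genes was 0.474 over 11844 genes in WT 48 h and -0.0451 to 0.0802 in the other groups, and 0.335 over the 68 members in WT 48 h, 0.374 in dKO 24 h, 0.0520 in dKO 48 h and -0.00943 in WT 24 h. Each of these is a description of 1 pair of libraries.

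**Figure D2:**
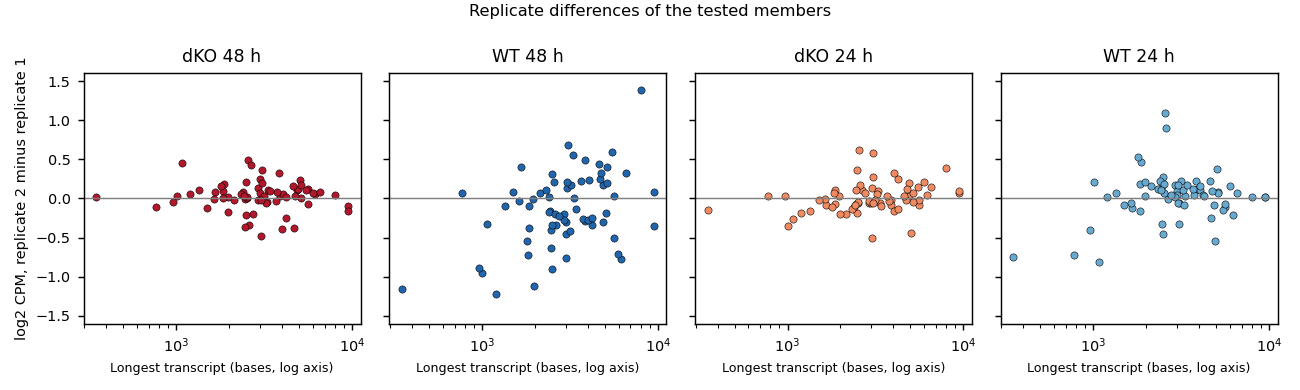
Log2 difference in CPM between replicate 2 and replicate 1 (y) for the 68 tested chaperone genes against their longest annotated transcript in bases (x, log axis), with 1 panel per group. The points spread most in WT 48 h, where 17 members differ by over 0.5.

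The first comparison asked which chaperone genes differed between the genotype labels at 48 h. Hspb2 fell and Bag2 rose in dKO 48 h, and the other tested members did not pass. In edgeR 2 of 68 members were called (adjusted p below 0.05 over all tested genes), where 11.2% of 12742 tested genes were called, so the members' share was below that of all genes. By direction, 3.19% of all genes were called higher and 8.04% lower. With plain library totals in place of TMM, 8 members (11.8%) were called higher and 1 (1.47%) lower, where 12.7 and 7.19% of all genes were, and the median of all genes moved to 0.15 on the log2 scale in place of -0.03. DESeq2 called Hspb2 alone.

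Hspb2 encodes a small heat shock protein of muscle, HSPB2 or MKBP. It stood at 507 and 468 CPM in dKO 48 h and at 1027 and 1078 CPM in WT 48 h. At 24 h it was at 313 and 319.7 CPM in dKO and 478 and 289 CPM in WT. Both WT 48 h libraries lay above the other 6, and the groups at 24 h overlapped. The log2 fold change at 48 h was -1.11 (SE 0.23, edgeR adjusted p = 0.0171). The call was lost without dKO 24 h replicate 1 or 2 (adjusted p = 0.0540 and 0.0542) or dKO 48 h replicate 1 or 2 (0.144 and 0.193), with the fold change between -1.16 and -1.06.

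Bag2 encodes a BAG protein that inhibits the ubiquitin ligase CHIP, the product of Stub1. Its levels were 20.5 and 23.4 CPM in dKO 48 h, 14.7 and 11.3 CPM in WT 48 h, 16.2 and 17.5 CPM in dKO 24 h, and 14.3 and 19.8 CPM in WT 24 h. The 48 h groups did not overlap and the 24 h groups did. The log2 fold change was 0.79 (SE 0.212, adjusted p = 0.0432, edgeR). It was called in 1 of the 8 fits that left out a library, the one without WT 48 h replicate 1, and ranged over 0.59 to 0.96 in these (adjusted p = 0.0580 to 0.273 in the other 7 fits). It was not called by DESeq2 either (0.0639).

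**Figure D3:**
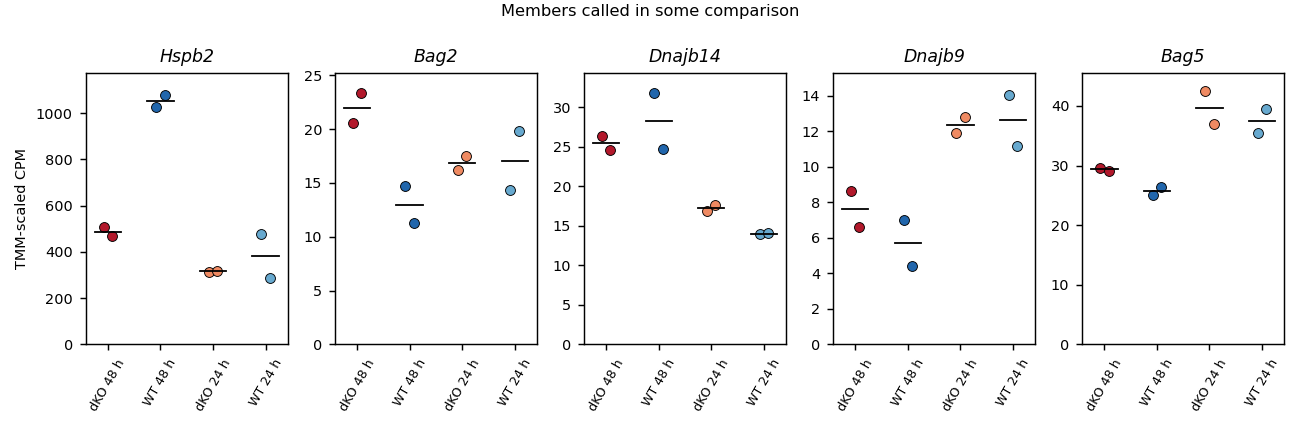
TMM-scaled CPM of Hspb2, Bag2, Dnajb14, Dnajb9 and Bag5, the members called in at least 1 comparison, with 1 point per library and a line at the mean of each group of 2. Hspb2 lies at 1027 and 1078 CPM in the WT 48 h libraries, and Dnajb9 and Bag5 lie lower at 48 h than at 24 h in both genotypes.

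The cytosolic HSP70 and HSP90 genes did not pass at 48 h. Hspa8, the constitutive HSP70 of the cytosol, was at 2251 and 2296 CPM in dKO 48 h and 2154 and 1610.5 CPM in WT 48 h (log2 0.27, SE 0.211). Its replicates in WT were farther apart than the group means. Hsp90aa1, the inducible HSP90, was at 1393 and 1347 CPM in dKO 48 h, between the 1173 and 1730.0 CPM of WT 48 h (log2 -0.08, SE 0.216), and its value was 0.23 without WT 48 h replicate 2. Hsp90ab1, its constitutive partner, was at 2895 and 2933 CPM in dKO 48 h and 2361 and 2941 CPM in WT 48 h (0.14, SE 0.204). Hsph1, the HSP110 gene with a longer heat shock element, was at 71.5 and 73.0 CPM in dKO 48 h and 66.5 and 83.2 CPM in WT 48 h (-0.06, SE 0.15). The dKO 48 h values of Hsp90aa1 and Hsph1 lay inside the range of the WT 48 h replicates, as did those of Hsp90ab1. The 95% intervals of the 3 log2 differences ran from -0.57 to 0.40 for Hsp90aa1, from -0.39 to 0.28 for Hsph1 and from -0.32 to 0.59 for Hsp90ab1. Without WT 48 h replicate 2 the differences of Hsp90aa1 and Hsph1 were 0.23 and 0.13, and without WT 48 h replicate 1 that of Hsp90ab1 was -0.027. With plain library totals the first 2 were also positive, at 0.090 and 0.12.

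The other HSP70 and HSP110 genes did not move as 1 block at 48 h. Of the 8 tested, 3 had a positive and 5 a negative difference. Hspa4l, an HSP110 gene, was at 26.2 and 23.4 CPM in dKO 48 h and 30.9 and 32.8 CPM in WT 48 h. Hspa14, whose product acts with a DNAJ partner on the ribosome, was at 158 and 176 CPM in dKO 48 h and 155 and 107 CPM in WT 48 h. The first pair of groups lay apart with dKO lower and the second with dKO higher, and neither gene was called.

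The CCT subunits all had positive differences at 48 h, and none was called. Both dKO 48 h libraries lay above both WT 48 h libraries for 8 of the 8 tested subunits, where 28.3% of all tested genes did so. The count was again 8 with RLE size factors, and 8 with plain library totals, where the share of all genes was 41.9% and their median log2 fold change 0.15. Their log2 fold changes ran from 0.15 to 0.44, with a median of 0.30, where the median over all tested genes was -0.03. Tcp1, the founding subunit, was at 502 and 534 CPM in dKO 48 h and 459 and 418 CPM in WT 48 h (0.24, SE 0.162). Cct5 was at 429 and 457 CPM in dKO 48 h and 372 and 347 CPM in WT 48 h (0.30, SE 0.159). Cct2 was at 584 and 592 CPM in dKO 48 h and 532 and 529.8 CPM in WT 48 h (0.15, SE 0.155). Across all tested members, 29 of 68 lay wholly higher in dKO 48 h and 8 wholly lower, where 28.3 and 28.6% of all tested genes did. The median log2 fold change of the 68 was 0.17.

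The mitochondrial chaperonin pair lay higher in both dKO 48 h libraries than in both WT 48 h libraries, without a call. Hspe1, the lid of the chaperonin, was at 1168 and 1129.9 CPM in dKO 48 h and 979 and 528 CPM in WT 48 h. Its log2 difference was 0.61 (SE 0.274, edgeR adjusted p = 0.153). Over the 16 alternative settings the difference of Hspe1 ran from 0.24 to 1.11, and it was 1.11 without WT 48 h replicate 1. Hspd1, the barrel of the same chaperonin, was at 1116 and 1139.8 CPM in dKO 48 h and 1039 and 1055 CPM in WT 48 h (0.11, SE 0.171). The genes lie head to head and overlap at their start sites on opposite strands. Whether reads were counted by strand is not stated, so reads there may belong to either. Hspa9, the mitochondrial HSP70, was at 422 and 415 CPM in dKO 48 h, inside the 366 and 425 CPM of WT 48 h (0.08, SE 0.162; -0.034 without WT 48 h replicate 1).

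ER chaperones did not share a direction at 48 h. Hspa5, the ER HSP70 also called BiP, was at 344 and 338 CPM in dKO 48 h and 369 and 429.7 CPM in WT 48 h (-0.23, SE 0.159). Hsp90b1, the ER HSP90, was at 534 and 514 CPM in dKO 48 h and 523 and 589.7 CPM in WT 48 h (-0.09, SE 0.161). These genes and Dnajc3 carry the ER stress elements shown above. Dnajc3, the ER cochaperone P58IPK, was at 89.0 and 100.2 CPM in dKO 48 h and 83.9 and 95.9 CPM in WT 48 h (0.07, SE 0.143). Dnajb9, the BiP partner ERdj4, was at 8.63 and 6.63 CPM in dKO 48 h and 7.005 and 4.42 CPM in WT 48 h (0.49, SE 0.272). The groups overlapped for Hsp90b1, Dnajc3 and Dnajb9, and the sign turned for Hsp90b1 (0.0097) without WT 48 h replicate 2 and for Dnajc3 (-0.032) without WT 48 h replicate 1, as it did without dKO 48 h replicate 2.

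Among the DNAJ genes, those with positive differences were more numerous but none was called. All 4 tested DNAJA genes, 6 of 10 DNAJB and 17 of 24 DNAJC genes had a positive log2 difference at 48 h. These counts include Dnajb9 and Dnajc3. Of all 12742 tested genes 6136 had a positive difference. Dnaja1, a main cytosolic partner of HSP70, was at 342 and 373 CPM in dKO 48 h and 307 and 216 CPM in WT 48 h (0.45, SE 0.188, edgeR adjusted p = 0.13). Dnajb1, the HSP40 that heat shock induces, was at 60.7 and 72.1 CPM in dKO 48 h and 56.2 and 45.7 CPM in WT 48 h (0.39, SE 0.155, edgeR adjusted p = 0.117). For both genes the dKO libraries lay above the WT libraries, with the wider gap to WT 48 h replicate 2. Dnajc2, a DNAJ protein of the ribosome, was at 227 and 240.2 CPM in dKO 48 h and 216 and 179.7 CPM in WT 48 h (0.24, SE 0.153). Dnajb6, with a longer heat shock element, was at 148 and 146 CPM in dKO 48 h. In WT 48 h Dnajb6 was at 124 and 102 CPM (0.38, SE 0.146, edgeR adjusted p = 0.108). Its log2 difference at 24 h was -0.05 (SE 0.146). Dnajc24 had the largest positive difference of the members in this fit at 0.94 (SE 0.319, adjusted p = 0.0827), with 32.9 and 34.2 CPM in dKO 48 h and 25.8 and 10.9 CPM in WT 48 h.

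The remaining BAG and small heat shock genes were not called at 48 h. Bag3, which works in stress-induced autophagy, was among the lowest tested members, with 1.79 and 2.60 CPM in dKO 48 h and 1.196 and 1.42 CPM in WT 48 h (0.71, SE 0.459, 95% interval -0.32 to 1.73). Its range over the 8 libraries was 0.843 to 2.97 CPM. Of the 6 BAG genes, 5 had positive differences, and 4 lay wholly higher in dKO 48 h, as did 28.3% of all genes. Hspb11 was at 25.01 and 22.9 CPM in dKO 48 h and 27.5 and 29.1 CPM in WT 48 h, and Hspb6 at 2.68 and 2.34 CPM in dKO 48 h and 2.56 and 1.053 CPM in WT 48 h.

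How many members were called at 48 h depended on WT 48 h replicate 1. Without it 29 members were called, 22 higher and 7 lower, which is 42.6% of the members, where 49.2% of 13248 tested genes were called, and the lone WT 48 h library is then assumed to vary like the other groups. Without WT 48 h replicate 2, 1 member was called lower and 0 higher in edgeR, where 8.78% of 13228 genes were called. At an unadjusted p below 0.05, 13 of 68 members and 33.1% of all genes passed with every library in the fit.

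**Figure D4:**
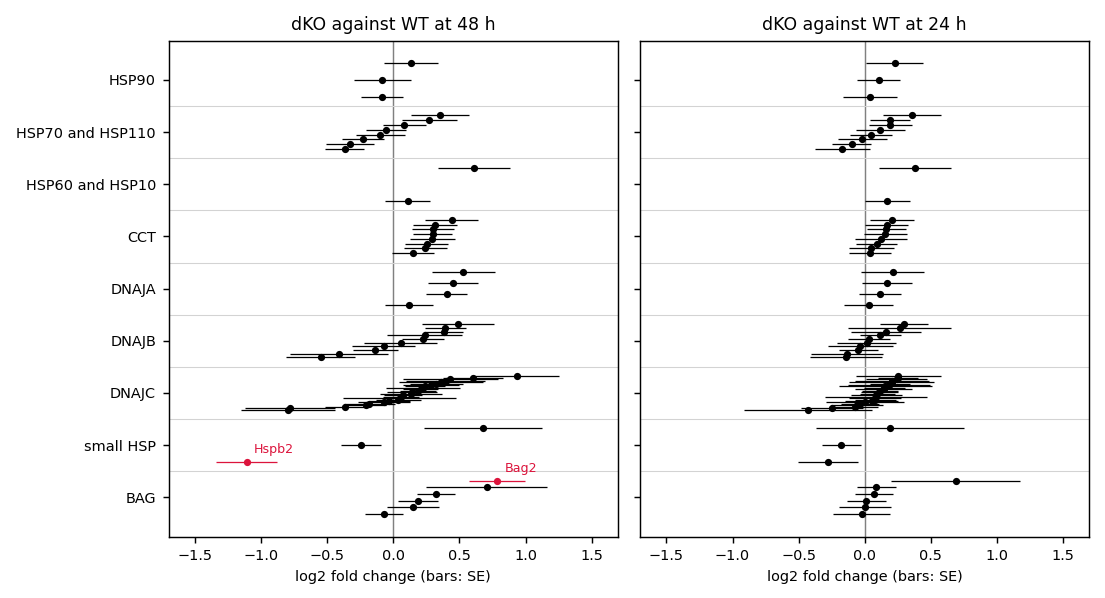
Log2 fold change of dKO against WT with its SE for each tested member, by family, at 48 h (left) and 24 h (right). Points in red are called. All 8 CCT genes lie right of 0 at both times, while Hspb2 at 48 h is the lowest point of either panel.

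At 24 h no chaperone gene passed the test between genotypes. In edgeR 0 of 68 members were called, with 0 at an unadjusted p below 0.05 and 0 in DESeq2. Of all tested genes 0.432% were called, 0.361% higher and 0.0706% lower, and 6.98% had such an unadjusted p. The median log2 difference of the members was 0.10, against 0.01 over all genes, and 53 of 68 were positive. Both dKO 24 h libraries lay above both WT 24 h libraries for 28 members and below for 5, where 24.3 and 20.6% of all genes did so. With plain library totals these counts were 14 (20.6%) and 2 (2.94%), where the share of all genes was 19.6% in each direction. Hspe1 was at 917 and 941 CPM in dKO 24 h and 812 and 614 CPM in WT 24 h, and Hspd1 at 1425 and 1348 CPM in dKO 24 h and 1187 and 1276 CPM in WT 24 h, both apart with dKO higher. With plain library totals the groups overlapped for Hspd1. All 8 CCT genes had positive differences between 0.04 and 0.20, and 5 of them did not overlap, but 1 of them with plain library totals. Hspa8 had the other sign, with 2147 and 2126 CPM in dKO 24 h and 2219 and 2583 CPM in WT 24 h.

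The cytosolic HSP90 genes and Hsph1 were not called between genotypes at 24 h. Hsp90aa1 was at 1583 and 1689 CPM in dKO 24 h and 1438 and 1357 CPM in WT 24 h. Hsp90ab1 was at 3522 and 3397 CPM in dKO 24 h and 3282 and 3433 CPM in WT 24 h. Hsph1 was at 87.7 and 94.98 CPM in dKO 24 h and 77.1 and 82.5 CPM in WT 24 h. The groups were apart for Hsp90aa1 and Hsph1 and overlapped for Hsp90ab1. Among ER and mitochondrial genes, Hspa5 was at 420.5 and 428 CPM in dKO 24 h and 393 and 427 CPM in WT 24 h. Hsp90b1 was at 478 and 498 CPM in dKO 24 h and 436 and 471 CPM in WT 24 h. Hspa9 was at 469.7 and 451 CPM in dKO 24 h and 379 and 427 CPM in WT 24 h. Of these 3, Hsp90b1 and Hspa9 were apart with dKO higher, as were 24.3% of all tested genes. With plain library totals the groups overlapped for both.

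Of the DNAJ genes at 24 h, Dnaja1 was at 301 and 283 CPM in dKO and 269 and 249 CPM in WT, which did not overlap. Dnajb1 was at 64.3 and 61.9 CPM in dKO 24 h and 60.7 and 62.7 CPM in WT 24 h. Dnajc3 was at 93.6 and 97.96 CPM in dKO 24 h and 95.7 and 100.5 CPM in WT 24 h. Both of these pairs overlapped. Dnajc2 was at 253 and 247 CPM in dKO 24 h and 233 and 239.8 CPM in WT 24 h. Tcp1 was at 484 and 452 CPM in dKO 24 h and 394 and 446 CPM in WT 24 h. Cct2 was at 621 and 633 CPM in dKO 24 h and 584 and 595 CPM in WT 24 h. These 3 were apart with dKO higher, as were 24.3% of all tested genes. With plain library totals the groups overlapped for each of them. Cct5, at 435 and 415 CPM in dKO 24 h and 387 and 439.9 CPM in WT 24 h, overlapped, as did Bag3 at 1.86 and 2.97 CPM in dKO 24 h and 0.843 and 2.06 CPM in WT 24 h.

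Averaged over both times, Hspb2 was the 1 member called, and it fell. Its log2 fold change was -0.69 (SE 0.161, edgeR adjusted p = 0.0306). Of all tested genes 7.8% were called, 2.28% higher and 5.52% lower. The call was lost without WT 24 h replicate 1, or without any 1 of the 4 dKO libraries (adjusted p = 0.0531 to 0.173), at -0.48 without WT 24 h replicate 1. An unadjusted p below 0.05 was found for 8 members and 27.9% of all genes. Without WT 48 h replicate 1, 22 members (32.4%) were called, 18 higher and 4 lower, where 42.3% of all genes were.

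Time in culture was compared within each genotype. In WT cells 2 members rose and 2 fell at 48 h relative to 24 h, where 7.87% of all tested genes were called higher and 3.5% lower, 11.4% in all. Hspb2 and Dnajb14 rose, and Dnajb9 and Bag5 fell. The split was 2 higher and 1 lower with RLE size factors and in DESeq2, without Bag5. It was 2 higher and 23 lower with plain library totals, where 5.69% of all genes were called higher and 20.7% lower and their median moved to -0.36. Without WT 48 h replicate 1 the count was 18 (26.5%), 6 higher and 12 lower, where 31.8% of all genes were called. Without replicate 2 it was 12 (17.4%), 6 in each direction, where 22.6% of all genes were called. With these 2 groups fitted alone edgeR called 0 members and 0.251% of all genes. An unadjusted p below 0.05 was found for 6 members and 24.6% of all genes. Libraries did not overlap for 6 members higher and 24 lower, where 22.7 and 24.4% of all genes did not. With plain library totals these counts were 2 higher and 46 lower, where the shares of all genes were 11.2 and 51.06%.

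Dnajb14, an ER membrane DNAJ gene, was at 31.8 and 24.8 CPM in WT 48 h and 13.9 and 14.1 CPM in WT 24 h (1.00, SE 0.178, edgeR adjusted p = 0.00529). In dKO cells it was at 26.3 and 24.6 CPM at 48 h and 16.8 and 17.7 CPM at 24 h, also apart, but not called (0.56, SE 0.177, adjusted p = 0.114). Dnajb9 was at 7.005 and 4.42 CPM in WT 48 h and 14.1 and 11.2 CPM in WT 24 h (-1.22, SE 0.261, edgeR adjusted p = 0.0141). In dKO cells its values were 8.63 and 6.63 CPM at 48 h and 11.9 and 12.8 CPM at 24 h (-0.70, SE 0.259, adjusted p = 0.153). Both genes thus had the same sign in either genotype. In WT the calls of Dnajb14 and Dnajb9 were lost without WT 24 h replicate 1 or 2 (adjusted p = 0.0550 to 0.134).

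Bag5, a BAG gene with several BAG domains, was at 25.1 and 26.3 CPM in WT 48 h and 35.4 and 39.5 CPM in WT 24 h (-0.54, SE 0.15, edgeR adjusted p = 0.0467). In dKO cells it was at 29.6 and 29.1 CPM at 48 h and 42.4 and 37.0 CPM at 24 h (-0.44, SE 0.15, adjusted p = 0.129). The 48 h libraries lay below the 24 h libraries in both genotypes. Its call in WT was lost without any 1 of the 2 WT 24 h or 4 dKO libraries (adjusted p = 0.0841 to 0.245). On the log2 scale Hspb2 rose in WT by 1.46 (SE 0.232, edgeR adjusted p = 0.00295), and in dKO its difference was 0.63 (SE 0.228, adjusted p = 0.147). The rise in WT was called in all 8 fits that left out a library, at 1.12 to 1.86, and not with the 2 WT groups fitted alone (0.0708).

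In dKO cells 0 of 68 members were called between 48 and 24 h in edgeR and 0 in DESeq2, where edgeR called 3.63% of all genes, 1.76% higher and 1.88% lower. An unadjusted p below 0.05 was found for 12 members and 23.3% of all genes. Libraries of the 2 times did not overlap for 53 of the 68: 22 were higher and 31 lower at 48 h, where 32.8 and 33.5% of all genes were. With plain library totals 10 were higher and 43 lower, where 20.27 and 47.65% of all genes were. By family, on the TMM scale, 6 of 8 HSP70 and HSP110 genes lay wholly lower and 2 wholly higher. With plain library totals 7 of these 8 lay wholly lower and 0 wholly higher. Hsp90ab1 was at 2895 and 2933 CPM in dKO 48 h and 3522 and 3397 CPM in dKO 24 h. Hspa5 was at 344 and 338 CPM in dKO 48 h and 420.5 and 428 CPM in dKO 24 h. Hspd1 was at 1116 and 1139.8 CPM in dKO 48 h and 1425 and 1348 CPM in dKO 24 h, whereas Hspe1 was higher, at 1168 and 1129.9 CPM against 917 and 941 CPM. Without WT 48 h replicate 1 or replicate 2 the count was 15 each time, 6 higher and 9 lower, which is 22.1 and 21.7% of the tested members, where 24.9 and 24.97% of all genes were called.

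Whether time acted differently in the 2 genotypes was tested as an interaction, the dKO change minus the WT change. In edgeR 0 of 68 members and 0 of all 12742 genes were called, and 0 members in DESeq2. At an unadjusted p below 0.05 there were 3 members and 12.4% of all genes. These were Bag2 at 0.81 (SE 0.302), Hspb2 at -0.83 (SE 0.322) and Dnajc10 at -0.51 (SE 0.217). The calls in WT and their lack in dKO are therefore not shown to differ. The count was 16 (23.5%), with 10 higher and 6 lower, without WT 48 h replicate 1, where 26.1% of all genes were called, and 1 without WT 24 h replicate 1, where 1.06% were.

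Hspb2 was the member with the widest range, and it moved with 4 genes that are not chaperones. Csrp3 is a muscle gene, and Ropn1, Odf4 and Tnp2 are genes of the testis or sperm. These 4 were picked in an earlier look at the same data. Hspb2 had 6.40 and 6.16% of the summed counts of the 4 genes in dKO 48 h, 5.93 and 6.47% in WT 48 h, 6.59 and 6.83% in dKO 24 h, and 6.64 and 6.29% in WT 24 h. The highest of these ratios was 1.15 times the lowest, whereas the CPM of Hspb2 ranged over 3.73 times. The coefficient of variation of the ratio was 4.47%, and it was 31.8 to 69.4% for the other 67 tested members. The 4-gene sum itself ran from 4589.5 to 17333.5 CPM, so a gene of steady level has a high value on this measure. For Cct2 the coefficient was 6.36% for its own CPM and 49.1% for the ratio. The contrast thus cannot show a tie particular to Hspb2. The log2 ratio of the 4-gene sum between dKO and WT at 48 h was -1.13, beside -1.11 for Hspb2, and between 48 and 24 h in WT it was 1.53, beside 1.46.

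**Figure D5:**
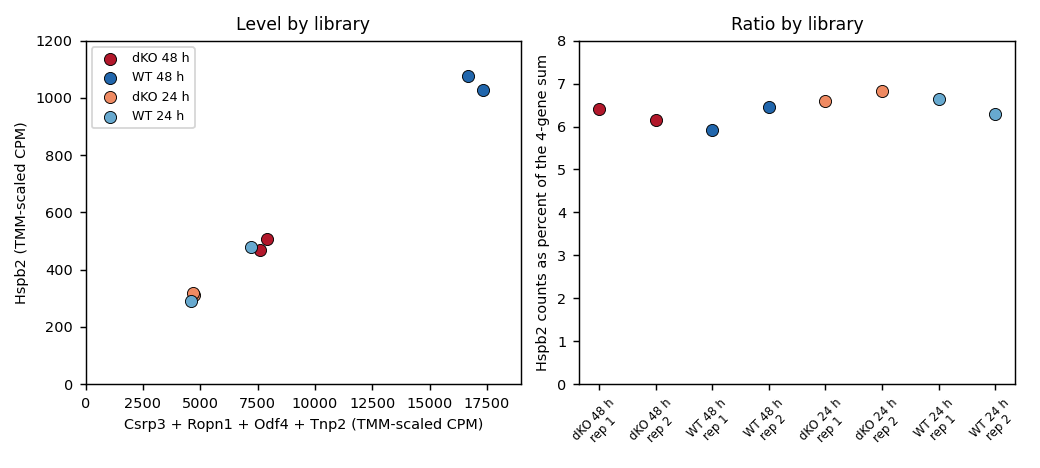
Left, TMM-scaled CPM of Hspb2 (y) against the summed CPM of Csrp3, Ropn1, Odf4 and Tnp2 (x), with 1 point per library. Right, Hspb2 counts as a percent of that sum in each library, between 5.93 and 6.83%, with both axes starting at 0.

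The neighbour of Hspb2 and the other small heat shock genes Hspb6 and Hspb7 were at lower levels, and were picked after their values were seen. Hspb2 (chr9:50751078-50752354, strand -) lies beside and overlaps Cryab on the opposite strand, which encodes another small heat shock protein of muscle and lens. Cryab had 0 counts in all 8 libraries. Hspb6 and Hspb7, small heat shock genes of muscle, had at most 2.68 CPM and 1.54 CPM in a library, where Hspb2 had 289 to 1078 CPM. What the movement of these 4 genes contributes to the calls of Hspb2 was not tested.

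Genes outside the rule that work with these chaperones were read from lists chosen with earlier results of these data known. Of 22 genes for heat shock factors and for cochaperones of HSP90 and HSP70, 21 were tested. At 48 h between genotypes 1 of the 21 was called, where 11.2% of all tested genes were. The called gene was Stub1, which encodes the ubiquitin ligase CHIP that tags HSP70 clients. It rose to 74.4 and 70.2 CPM in dKO 48 h, against 49.2 and 48.9 CPM in WT 48 h (0.56, SE 0.135, edgeR adjusted p = 0.0295), and was at 83.03 and 75.8 CPM in dKO 24 h and 76.4 and 82.4 CPM in WT 24 h. The call was lost without any 1 of the dKO or WT 24 h libraries (adjusted p = 0.0506 to 0.196) and in DESeq2 (0.0565). Over time in WT 2 of the 21 fell, Stub1 (-0.70, SE 0.135) and Fkbp4 (-0.52, SE 0.142), the immunophilin of HSP90. Of all tested genes 3.5% were called lower in that comparison, and DESeq2 called 1 of the list lower. The call of Stub1 was lost without WT 24 h replicate 2 (adjusted p = 0.073), and that of Fkbp4 without any 1 of the dKO or WT 24 h libraries (0.0692 to 0.152). Fkbp8 (0.49, SE 0.141, adjusted p = 0.0523) and Ppid (0.53, SE 0.173, adjusted p = 0.0756), both cochaperones of the immunophilin kind, had the next smallest p at 48 h. The median log2 difference of this list between genotypes at 48 h was 0.36, against -0.03 over all genes.

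Prefoldin, which hands unfolded actin to CCT, and other CCT partners gave 9 tested genes. In edgeR 0 were called in any of the 6 comparisons. At 48 h 2 were higher at an unadjusted p below 0.05, Pdcl3 (0.52, SE 0.181) and Pfdn4 (0.64, SE 0.252), and over both times 4. Of all tested genes, 33.1% at 48 h and 27.9% over both times had such a p in either direction. Pfdn1 had the next smallest p at 48 h (0.55, SE 0.246). DESeq2 called 0 at 48 h and 1 higher in dKO over time. The median at 48 h was 0.41, beside 0.30 for the CCT genes.

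Of 20 ER folding and unfolded protein response genes, 19 were tested. In dKO at 48 h 2 of the 19 fell, where 8.04% of all tested genes were called lower. Pdia4, a disulfide isomerase of the ER, was at 1182 and 1172 CPM in dKO 48 h and 2525 and 2448 CPM in WT 48 h (-1.08, SE 0.226, edgeR adjusted p = 0.0175). Atf6, a sensor of the unfolded protein response, was at 8.49 and 7.15 CPM in dKO 48 h and 12.6 and 22.9 CPM in WT 48 h (-1.23, SE 0.271, adjusted p = 0.021). Both calls were lost without any 1 dKO library (adjusted p = 0.0511 to 0.207), and that of Atf6 also without WT 48 h replicate 2 (0.0732) or either WT 24 h library. Sdf2l1 had the next smallest p at 48 h between genotypes (0.43, SE 0.147, adjusted p = 0.0842). In dKO 48 h against 24 h 1 of the 19 rose, Xbp1, the factor of the same response (0.87, SE 0.161, edgeR adjusted p = 0.0205). In WT 1 of the 19 rose, Pdia4 (1.43, SE 0.228). Of all tested genes 1.76% were called higher over time in dKO and 7.87% in WT. DESeq2 called 2 of the list higher and 1 lower over time in dKO, and 1 higher in WT. The call of Xbp1 was lost without any 1 dKO library (adjusted p = 0.168 to 0.238). Pdia4 also fell in dKO over both times (-0.69, SE 0.159), where 5.52% of all tested genes were called lower. This call was lost without any 1 dKO library. Pdia4 held 14.6 to 15.98% of the summed counts of the 4 genes above in every library, where its highest ratio was 1.10 times its lowest.

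Of 10 mitochondrial folding and protease genes, 2 rose in dKO at 48 h and 0 fell. Of all tested genes 3.19% were called higher there and 8.04% lower. Clpp, the mitochondrial protease subunit, was at 76.2 and 77.6 CPM in dKO 48 h and 50.9 and 42.7 CPM in WT 48 h (0.72, SE 0.151, edgeR adjusted p = 0.0174). Grpel1, the nucleotide exchange factor of mitochondrial HSP70, was at 183 and 186 CPM in dKO 48 h and 131 and 87.9 CPM in WT 48 h (0.76, SE 0.195, adjusted p = 0.0376). Both calls were lost without any 1 dKO library (adjusted p = 0.0532 to 0.228), and that of Grpel1 also without either WT 24 h library. Timm44, of the import motor, had the next smallest p (0.43, SE 0.183, adjusted p = 0.134). Clpp also rose over both times (0.47, SE 0.106), where 2.28% of all tested genes were called higher. It fell in WT at 48 h relative to 24 h (-0.64, SE 0.151), where 3.5% were called lower. Both of these calls were lost without any 1 dKO library, the first also without WT 24 h replicate 1 and the second without WT 24 h replicate 2 (adjusted p = 0.0594 to 0.178). At 24 h 0 genes of the 4 lists were called between genotypes and 0 had an unadjusted p below 0.05, and in the interaction 0 were called. Of all tested genes at 24 h, 0.432% were called and 6.98% had such an unadjusted p.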

How the data were processed

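The deposited table holds the authors' raw counts, whole numbers by gene symbol, for 8 libraries. Per the submitters' processing notes, cutadapt 1.18, Bowtie2 2.2.5 and the build mm10 were used. The counting program, its annotation, strand use, molecular identifiers and transcript coverage are not stated in the sources used. The unnamed last entry equals the column total in 8 of 8 libraries (50.0% of each column sum) and was left out. Positions and transcript lengths came from GENCODE M21 (GRCm38, which is mm10), which holds 19958 of the 24976 symbols and all 84 members.

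Tests were two-sided and used edgeR 4.0.16 (R 4.3.3) with its quasi-likelihood F statistic, on all libraries in 1 fit with a mean per group, TMM scaling and filterByExpr with a minimum count of 10, which kept 12742 genes. The fit had 4 residual and 5.76 prior degrees of freedom and a common dispersion of 0.0246. Genes were called at a Benjamini-Hochberg adjusted p below 0.05 over all tested genes. SE was taken as the size of the log2 fold change divided by the root of F. The script was tested on simulated data. Values of single genes are counts scaled by library total and TMM factor. Markers and library shares use plain totals. Floors and intervals cover counting error or the fitted spread only. Same-numbered replicates were not treated as pairs in the main fit. Alternatives were RLE factors, plain totals, other filters, a replicate block, the groups compared alone, each library left out, and DESeq2 1.42.0.

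Members, lists and alternatives were chosen with earlier results of these data known. Values are given for every member called between genotypes or in time, for a fixed set of 20 chaperone genes, and for list genes called or among the 3 smallest p of their list at 48 h between genotypes. Other members were named after their values were seen.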

Additional observations from a re-analysis of the deposited data

How the results depend on the processing

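Depth and 2 libraries per group limit these results, and WT 48 h replicate 2 has the most counts and differs most from its partner. The counts of called members moved with several settings, and the cause was not tested beyond the fewer samples or genes in a fit. Each count stands beside the share of all genes called in the same fit. With plain library totals the count was 9 at 48 h (19.9% of all genes), 3 over both times (10.1%) and 25 for time in WT (26.4%). With no filter on low counts it was 6 at 48 h (12.9%), 4 over both times (9.85%) and 3 for time in dKO (7.18%). A mean of at least 50 counts gave 1 at 48 h (10.8%) and DESeq2 gave 1 (9.03%). The fit with a replicate block gave 1 at 48 h (10.1%), where Bag2 was lost, as were Bag5 and Fkbp4 for time in WT, and no other named call was lost. The correlation of same-numbered deviations was -0.0760 to 0.172 and above 0.1 in 1 of 6 pairs of groups. Each group gives 1 difference between replicates, so pairing of same-numbered libraries is neither shown nor excluded. With only the 2 groups compared, the edgeR count was 1 at 48 h (3.66%), 27 for time in dKO (37.3%) and 0 for time in WT (0.251%). Leaving out each library in turn gave 0 to 29 at 48 h, 0 to 22 over both times, 0 to 15 for time in dKO, 1 to 18 for time in WT, 0 to 16 for the interaction and 0 at 24 h. The share of all genes ran over 0.113 to 49.2% at 48 h, 0.422 to 42.3% over both times, 0.241 to 24.97% for time in dKO, 4.49 to 31.8% for time in WT, 0 to 26.1% for the interaction and 0.0982 to 2.80% at 24 h. These highest counts came without WT 48 h replicate 1, with the same count without replicate 2 for time in dKO.

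With plain library totals the summed level of all members was 17438 CPM in dKO 48 h, 14017 in WT 48 h, 20062 in dKO 24 h and 19144 in WT 24 h, and that of the CCT genes 3911 in dKO 48 h, 2827 in WT 48 h, 4329 in dKO 24 h and 4022 in WT 24 h. The sign at 48 h between genotypes turned with plain totals for Hsph1 (0.12), Hsp90aa1 (0.090) and Hsp90b1 (0.091). With each library left out in turn it turned for 6 genes: the values ran from -0.22 to 0.13 for Hsph1, -0.35 to 0.23 for Hsp90aa1, -0.18 to 0.0097 for Hsp90b1, -0.034 to 0.20 for Hspa9, -0.027 to 0.31 for Hsp90ab1 and -0.032 to 0.18 for Dnajc3. None of these genes was called in the fit with all libraries.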

Other observations

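Some chaperone genes of the testis, picked after their values were seen, were low in the libraries in which the sperm genes Odf4 and Tnp2 were counted. All those named here are among the members that did not pass the filter, so low counts came with the choice. What they say about the source of the sperm genes' counts was not tested. Dnajb3, a DNAJ gene of the testis, had 2 to 7 counts in a library. Hspa1l, an HSP70 of the testis, had 0 to 6 counts, and Dnajb7 and the testis form of the CCT subunit 6, Cct6b, had at most 2 and 3 counts. Hspa2, the other HSP70 of the testis named above, had at most 31 counts. It was highest in WT 48 h, at 1.88 and 1.63 CPM, against 0.547 to 1.34 CPM in the other libraries. The summed counts of Csrp3, Ropn1, Odf4 and Tnp2 were 25168 to 316417 per library.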
